A study of Homo sapiens with 9 samples.

Results

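The xenografts described here are the PC3 tumors whose record titles name T-DXd, set against the tumors of mice given PBS, the vehicle. They were chosen by column name from the deposited count table for this pair, which gave 3 T-DXd-titled and 3 PBS libraries, 6 of the 9 libraries of the series. PC3 is an established line derived from a bone metastasis of prostate cancer that grows without androgen. Per the series record, PC3 cells mixed with Matrigel were grown under the flank skin of male NSG mice aged 11 weeks, which lack mature lymphocytes but keep macrophages, neutrophils, fibroblasts and vessels. Treatment began at 90 mm3 and was weekly, by the retro-orbital route, for 5 cycles, with PBS or with a conjugate at 5 mg/kg. For the experiment at this dose, the study's methods give a different mouse age, starting volume and number of cycles, so these details are uncertain. The record places collection at the endpoint, so the treated libraries come from residual tumor. T-DXd (trastuzumab deruxtecan) is an antibody against HER2 and P-DXd (patritumab deruxtecan) an antibody against HER3, and both carry the same payload. The treatment field of the 3 T-DXd-titled records names P-DXd, so which conjugate these mice received is unresolved, and the group is called T-DXd-titled. Each record carries its own code (HF1.1, HF1.2 and HF2.1 for PBS, F1.4, F2.2 and F2.3 for T-DXd-titled), but no label says that a code is a separate animal, and p-values measure the spread between these samples.

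Deruxtecan inhibits topoisomerase I, the enzyme that nicks and reseals DNA to relieve the twist made by replication and transcription, and the trapped enzyme becomes a break when a replication fork runs into it. Cells that stop dividing repress the genes of DNA replication and mitosis as a group. The promoters of replication genes typically carry sites for E2F, and those of mitotic genes carry a cell cycle homology region (CHR) with CCAAT boxes. Surviving tumor cells can also change how visible they are to immune cells, through MHC class I antigen presentation, cytokines and chemokines.

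Library totals ran from 90761777 to 125538670 counts in PBS and from 66954114 to 73655752 in the T-DXd-titled group, so each PBS library was deeper than each T-DXd-titled one. PBS replicate 1 stood apart. On the first principal component of log2 CPM (71.2% of the variance) the PBS libraries were at -89.9, -43.2 and -37.8 and the T-DXd-titled libraries between 55.2 and 60.3, and on the second component (16.2%) PBS replicate 1 was at 45.8 against -27.3 and -42.2 for the other PBS libraries. The median coefficient of variation was 14.6% over the 3 PBS libraries, 5.00% over PBS replicates 2 and 3, and 5.79% over the T-DXd-titled libraries. Many results that rest on the PBS level, but not all, are therefore also given without PBS replicate 1. Where that value is not given, the fold change can depend on this library. For CLDN1 the log2 fold change was 2.16 with all libraries and 1.83 without it, and for ZWINT -2.63 and -2.19. Markers of the line were read. KRT8, KRT18, VIM and CD44, which PC3 cells express, were present in each library, and KLK3 was not listed. These markers do not identify the line. CTNNA1, a gene deleted in PC3 cells, also had counts in each library, as given below. Levels below are CPM, the counts after TMM scaling of library sizes to a common total, and a value triplet follows replicates 1 to 3. The log2 fold change of T-DXd-titled against PBS (log2FC) stands with its standard error after ±.

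**Figure D1:**
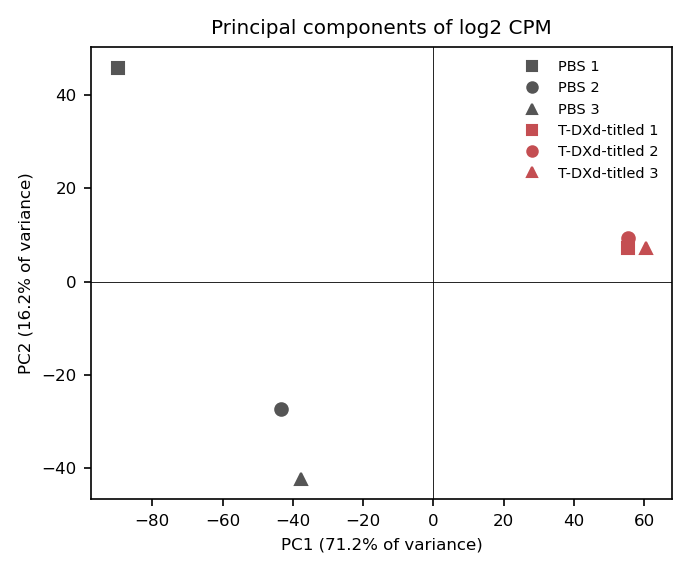
Principal components of log2 CPM, with PC1 (71.2% of variance) on the x axis and PC2 (16.2%) on the y axis, 1 point for each library and a marker for each replicate. The T-DXd-titled libraries sit together between 55.2 and 60.3 on PC1, while PBS replicate 1, at -89.9 on PC1 and 45.8 on PC2, lies away from PBS replicates 2 and 3.

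Residual T-DXd-titled xenografts differed from PBS in 4263 of 14915 genes tested (28.6%), of which 1958 (13.1%) were higher and 2305 (15.5%) lower. Calls rest on edgeR's quasi-likelihood test, with a Benjamini-Hochberg adjusted p of 0.05 as the limit and 1.5-fold as the smallest change, and a gene described as not called failed this in the fit of all 6 libraries. The groups did not overlap in 9141 genes (61.3%), which is the background for a separation in a gene that was not called. Among the called genes the share was 99.7%, all but 14. Part of the rule for naming genes also required it, so a separation in a called gene adds no support to its call. At least 2-fold rises were seen in 1096 genes and at least 2-fold falls in 1300, and changes of at least 8-fold in 107 and 122. The genes called higher took up 8.63% of the summed CPM in PBS and 17.3% in T-DXd-titled xenografts, and those called lower 17.5% and 8.41%. The median log2 fold change of all genes tested was -0.02. Without PBS replicate 1 the count was 4357, and 3600 (84.4%) of the genes called with all libraries were among them. PBS replicate 1 was the PBS library farthest from the T-DXd-titled group in 2988 (70.1%) of the called genes. In bulk tissue, fewer cells of a type and less RNA in each cell cannot be told apart.

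Genes of cell division fell as a group. All 30 mitotic kinetochore and spindle genes fell, with log2 fold changes from -4.17 to -2.15 and a median of -2.77, against -0.02 for all genes tested, where 15.5% were called lower. All 30 were also called without PBS replicate 1 (median -2.46). Their summed level was 3089, 1939 and 1756 CPM in the PBS libraries and 321, 342 and 275 CPM in the T-DXd-titled ones. The kinesin KIF20A, which carries the chromosomal passenger complex to the spindle midzone, was 54.7, 31.9 and 27.5 CPM in PBS replicates 1 to 3 and 1.69, 2.46 and 2.2 CPM in T-DXd-titled replicates 1 to 3 (log2FC -4.17 ± 0.32, adjusted p = 0.000508). PLK1, the kinase that drives mitotic entry and spindle assembly, was 116, 65.3 and 58.6 CPM in PBS and 3.99, 6.15 and 4.0 CPM in T-DXd-titled libraries (log2FC -4.08 ± 0.33, adjusted p = 0.000552). For both genes PBS replicate 1 was the highest library, the other PBS libraries were alike, and no T-DXd-titled library came near the lowest of them. Without PBS replicate 1 log2FC was -3.81 and -3.71. The kinetochore scaffold gene CASC5 (KNL1) was 47.0 ± 14.4 CPM in PBS and 3.79 ± 0.350 CPM in T-DXd-titled libraries (SD, n = 3 each), a log2 fold change of -3.63. CENPF, a kinetochore protein made late in the cycle, was 174 ± 36.6 CPM in PBS and 16.6 ± 3.21 CPM in T-DXd-titled libraries, a log2 fold change of -3.39. ZWINT, which docks other proteins on the kinetochore, was among the abundant genes with the largest falls, from 512, 266 and 230.2 CPM to 56.0, 56.6 and 50.8 CPM. PLK1 overlaps ERN2 and KIF20A overlaps BRD8 and CDC23 in the table's coordinates, and the methods do not state whether strand was used in counting, so reads of such pairs are uncertain. The same holds for CCNA2, FOXM1, CCND1, CDK4, TYMS, FANCA, CHEK1, ATM, GBP2, CA9, APAF1, C3, OGN and DNAJB9 below, each of which overlaps another listed gene.

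The promoters of mitotic genes show what these members share beyond their fall. RefSeq promoters (GRCh38.p14, which is not the build of the table; 250 bases before to 50 after the start) were matched for 25 of the 30 mitotic genes. The CHR element, TTTGAA on either strand, was found in 16 of these 25 (64.0%), against 15.4% of all 27305 promoters in the table, and CCAAT in 20 (80.0%) against 35.7%. Either TTTGAA or its variant TTTAAA together with CCAAT was found in 16 (64.0%), against 9.49% of all promoters. TTTGAA and TTTAAA were in none of the 26 replication promoters matched, where the E2F site TTTCCCGC was in 8 (30.8%) against 1.66% of all promoters. CCAAT was not particular to the mitotic list. It was in 16 of the 26 replication promoters (61.5%) and in 76.2% of the promoters matched for the unfolded protein list. A match is a description of the letters in this window and no evidence of binding. The 140 bases before the start are shown for 4 mitotic genes, PLK1 and KIF20A with the largest falls and CCNB2 (cyclin B2) and PRC1 (a crosslinker of the spindle midzone) for the spacing of their elements, at chr16:23678749-23678888 (plus strand), chr5:138178972-138179111 (plus strand), chr15:59105006-59105145 (plus strand) and chr15:90994536-90994675 (minus strand). Capitals mark the CHR element (in KIF20A its variant) and CCAAT boxes, the latter written ATTGG where they lie on the other strand. The log2FC of CCNB2 was -2.69 and that of PRC1 -2.67.
PLK1: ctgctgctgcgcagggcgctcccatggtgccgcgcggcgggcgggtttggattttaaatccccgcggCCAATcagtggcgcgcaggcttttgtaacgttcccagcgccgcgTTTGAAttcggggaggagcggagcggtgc
KIF20A: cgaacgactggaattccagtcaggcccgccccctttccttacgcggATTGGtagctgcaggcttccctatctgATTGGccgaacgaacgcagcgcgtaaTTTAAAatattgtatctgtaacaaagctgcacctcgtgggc
CCNB2: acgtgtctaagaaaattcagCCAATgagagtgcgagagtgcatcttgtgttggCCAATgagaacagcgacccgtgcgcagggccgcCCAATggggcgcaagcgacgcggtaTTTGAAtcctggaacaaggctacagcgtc
PRC1: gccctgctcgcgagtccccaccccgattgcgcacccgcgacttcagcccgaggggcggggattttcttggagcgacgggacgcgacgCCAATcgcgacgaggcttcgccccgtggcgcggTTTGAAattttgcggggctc
In each of these the CHR element or its variant lay nearest the start, its first base 29 bases before it in PLK1 and CCNB2, 41 in KIF20A and 20 in PRC1, with CCAAT boxes farther upstream, and PLK1 also holds TTTAAA upstream of its CCAAT box, in lower case. Neither CHR form was found in the replication genes PCNA (the sliding clamp) and RFC3 (a subunit of the clamp loader), at chr20:5126623-5126762 (minus strand) and chr13:33818009-33818148 (plus strand), in which capitals mark the E2F site read on the other strand. PCNA also holds CCAAT on both strands, left in lower case.
PCNA: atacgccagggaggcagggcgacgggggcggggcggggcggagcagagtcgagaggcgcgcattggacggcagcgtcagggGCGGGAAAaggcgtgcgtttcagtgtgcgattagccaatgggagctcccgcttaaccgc
RFC3: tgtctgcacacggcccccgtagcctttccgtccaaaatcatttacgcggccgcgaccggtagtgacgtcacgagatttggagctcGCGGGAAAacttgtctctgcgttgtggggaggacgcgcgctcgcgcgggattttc

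Replication genes fell less than mitotic genes. All 29 members of the replication fork and licensing list were called lower, with log2 fold changes from -2.47 to -0.76 (median -1.54), and 28 were called without PBS replicate 1 (median -1.2). CLSPN (claspin, which links stalled forks to CHK1) was 56.1, 26.9 and 23.6 CPM in PBS and 7.01, 6.99 and 5.19 CPM in T-DXd-titled libraries (log2FC -2.47 ± 0.35, adjusted p = 0.00263). MCM10, which helps start replication, was 19.8, 19.6 and 15.7 CPM in PBS and 3.66, 3.63 and 2.66 CPM in T-DXd-titled libraries (log2FC -2.47 ± 0.19, adjusted p = 0.000508). The T-DXd-titled libraries were the lowest for both genes without overlap, but PBS replicate 1 stood well above the other PBS libraries for CLSPN and not for MCM10. ORC6 and POLE2, a subunit of the origin complex and one of the leading-strand polymerase, had log2 fold changes of -2.43 and -2.45, or -1.96 and -1.75 without PBS replicate 1.

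Enzymes that make nucleotides and proteins that package new DNA fell with them. In the nucleotide synthesis list 14 of 22 genes fell and none rose (median -0.78), between 11 and 16 when 1 library was left out. TYMS, which makes thymidylate, was 107, 50.2 and 49.2 CPM in PBS and 12.2, 13.8 and 13 CPM in T-DXd-titled libraries (log2FC -2.40 ± 0.32, adjusted p = 0.00204). TK1 and RRM2, both made in S phase, had log2 fold changes of -2.12 and -2.01, and PAICS of purine synthesis -1.62. The abundant members SHMT2, IMPDH2 and ATIC were not called, at -0.06, -0.58 and -0.35. In the chromatin list 12 of 15 genes fell (median -1.57) with the same count without PBS replicate 1. CDCA7, which activates the remodeler encoded by HELLS, was 55.9, 33.7 and 30.2 CPM in PBS and 3.17, 3.24 and 2.99 CPM in T-DXd-titled libraries (log2FC -3.67 ± 0.26, adjusted p = 0.000466). LMNB1, the nuclear lamin whose loss accompanies senescence, was 133, 72.4 and 68.4 CPM in PBS and 12.6, 14.2 and 8.75 CPM in T-DXd-titled libraries (log2FC -2.94 ± 0.31, adjusted p = 0.00108). Both were low in each T-DXd-titled library and did not overlap PBS. HMGB2 and HELLS had log2 fold changes of -2.86 and -2.66. The histone variant gene H2AFZ, SUZ12 and EED were not called, and H2AFZ was 446, 221 and 204 CPM in PBS and 202, 218 and 208 CPM in T-DXd-titled libraries, so it stood high only in PBS replicate 1.

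Cyclins and their partners changed less uniformly. Of 30 genes in the list of cyclins, CDKs, CDK inhibitors and E2F factors, 15 fell and 3 rose (median -0.49), and the count of falls was 14 or 15 when any 1 library was left out. CCNA2 (cyclin A2) was 81.3, 48.8 and 48.3 CPM in PBS and 8.15, 8.52 and 7.56 CPM in T-DXd-titled libraries (log2FC -2.88 ± 0.23, adjusted p = 0.000508). FOXM1, which activates mitotic genes, was 112, 91.2 and 83.6 CPM in PBS and 13.2, 14.3 and 12.2 CPM in T-DXd-titled libraries (log2FC -2.86 ± 0.14, adjusted p = 0.000253). Neither group overlapped the other, and leaving out PBS replicate 1 changed these values little (-2.59 and -2.73). The repressor E2F7 was at -2.56 and CDK1 at -2.48. The members of G1, CCND1 (cyclin D1) and CDK4, were not called, with log2 fold changes of 0.36 and -0.32. CDKN1A (p21) was 101, 152 and 159.9 CPM in PBS and 137, 151 and 143 CPM in T-DXd-titled libraries, and these ranges overlapped (log2 fold change 0.06, adjusted p = 0.786). The 3 genes that rose, named after their values were seen, encode inhibitors: CDKN1C (p57) at 1.77, CDKN2B (p15) at 1.34 and CDKN2A (p16) at 0.65. Without T-DXd-titled replicate 3 only 1 of the 3 was called.

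Genes that repair breaks and stalled forks fell too. In the homologous recombination and Fanconi list 21 of 26 genes fell and none rose (median -1.63), or 18 without PBS replicate 1. BRCA2, a mediator of strand exchange at resected breaks, was 42.0, 28.1 and 25.1 CPM in PBS and 6.63, 6.01 and 5.01 CPM in T-DXd-titled libraries (log2FC -2.43 ± 0.23, adjusted p = 0.000728). FANCA of the Fanconi core complex was 51.9, 29.5 and 23.8 CPM in PBS and 5.09, 5.34 and 6.39 CPM in T-DXd-titled libraries (log2FC -2.65 ± 0.30, adjusted p = 0.00132). XRCC2 and FANCB were at -2.51 and -2.64. Each of these was lower in each T-DXd-titled library than in any PBS library. FANCC, FANCF and RAD51C were not called (-0.12, -0.02 and -0.38). Of 24 damage checkpoint and topoisomerase I lesion repair genes 15 fell and none rose (median -0.71), or 11 without PBS replicate 1. CHEK1, the checkpoint kinase of replication stress, was 111, 59.6 and 58.3 CPM in PBS and 15.8, 16.8 and 14.0 CPM in T-DXd-titled libraries (log2FC -2.30 ± 0.27, adjusted p = 0.00138). TOPBP1 and ATM, an activator of ATR and the kinase of double-strand breaks, were at -1.34 and -1.19.

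The payload's target and its known modifiers were read directly. TOP1 itself was 308, 245 and 231 CPM in PBS and 211, 206 and 199.5 CPM in T-DXd-titled libraries and was not called (log2FC -0.34 ± 0.12, adjusted p = 0.0552), although each T-DXd-titled library was below each PBS library. SLFN11, which blocks stressed replication forks and is known to sensitize cells to topoisomerase I inhibitors, was 45.7, 38.0 and 35.5 CPM in PBS and 19.9, 17.1 and 19.4 CPM in T-DXd-titled libraries (log2FC -1.08 ± 0.13, adjusted p = 0.00143). Its levels did not overlap, and log2FC was -0.97 when PBS replicate 1 was left out. TDP2 and NBN, members of the damage list above, were not called (0.26 and -0.30). Among 9 drug exporters 3 fell and none rose, against 15.5% called lower over all genes. They were ABCC5 at -1.03, ABCC2 at -1.68 and ABCB4 at -2.14, and the ABCB4 call was lost when any 1 T-DXd-titled library was left out. ABCG2, the transporter best known for exporting such inhibitors, was 0.205, 0.196 and 0.107 CPM in PBS and 0.304, 0.162 and 0.214 CPM in T-DXd-titled libraries, and it was not called. ABCC1 and ABCC4 were not called (-0.55 and -0.43). ABCC3 was 28.1, 117 and 127 CPM in PBS and 223, 216 and 231 CPM in T-DXd-titled libraries. Its log2FC was 1.3 and missed the threshold, whereas it was called without PBS replicate 1 (0.87), with DESeq2 (1.31, adjusted p = 0.0102) and in edgeR's fit of all 9 libraries (1.3, adjusted p = 0.0298).

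A part of the genes for ribosome biogenesis fell. Of 26 ribosome biogenesis genes 14 fell and none rose (median -0.63), or 10 without PBS replicate 1, and the range over the 6 fits that each left out 1 library was 10 to 17. UTP20 of the small subunit processome was 97.2, 70.7 and 59.7 CPM in PBS and 35.8, 31.8 and 30.3 CPM in T-DXd-titled libraries (log2FC -1.22 ± 0.18, adjusted p = 0.00321). NPM1 (nucleophosmin) was 2228, 1666 and 1439.6 CPM in PBS and 821, 878 and 846 CPM in T-DXd-titled libraries (log2FC -1.07 ± 0.16, adjusted p = 0.00343). These did not overlap. NOP56 was at -1.14 with all libraries and -0.67 without PBS replicate 1, and its call was lost when any 1 T-DXd-titled library was left out. BOP1 was at -1.17, and PES1, GNL3 and NOC2L were not called. Of 23 nuclear genes of mitochondrial respiration 2 fell, IDH3A at -0.63 and NDUFV2 at -1.91, and none rose (median -0.27). The share that fell, 8.70%, was below the 15.5% of all genes called lower. Leaving out 1 library gave between 0 and 3 falls, 1 when PBS replicate 1 or T-DXd-titled replicate 3 was dropped and 0 when T-DXd-titled replicate 2 was. ATP5B, COX4I1 and UQCRC1 were not called.

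**Figure D2:**
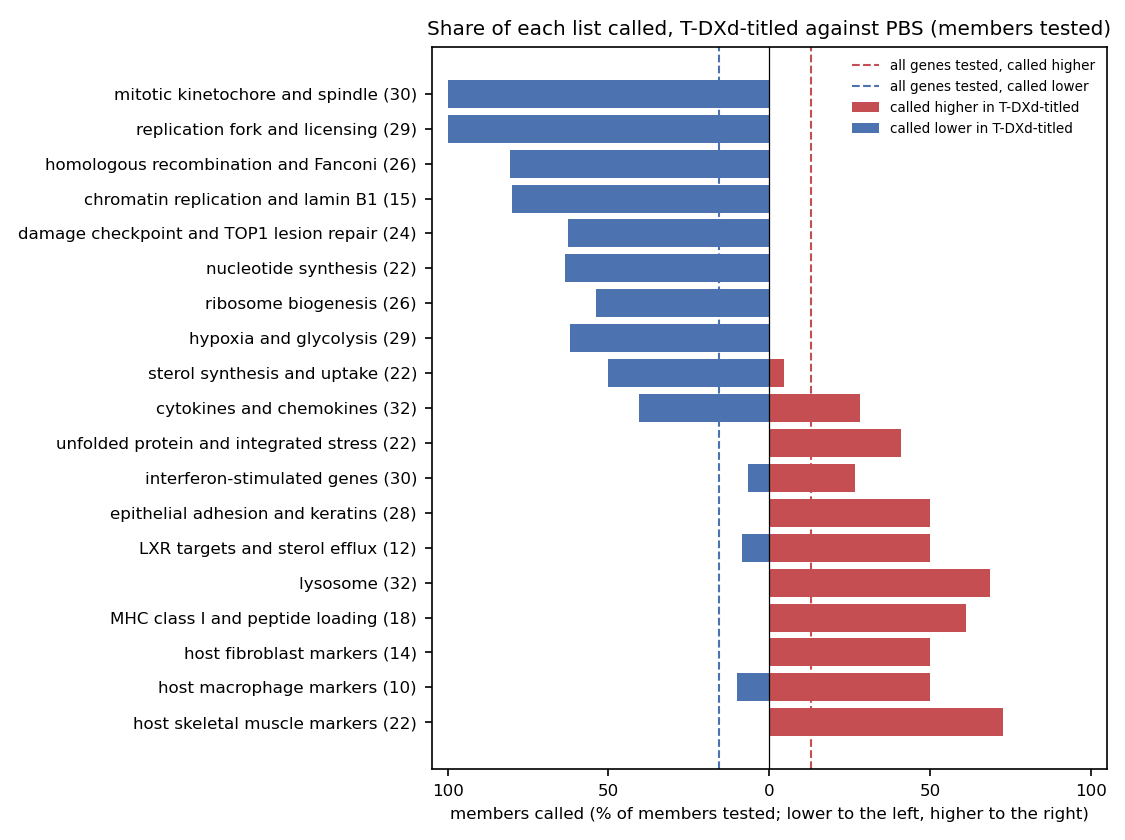
Share of the members tested (%, number in brackets) called lower (blue, to the left) or higher (red, to the right) in T-DXd-titled against PBS xenografts for 19 gene lists, with dashed lines at the shares over all genes tested, 15.5% lower and 13.1% higher. Each mitotic and replication gene tested was called lower, and 22 of 32 lysosome genes (68.8%) were called higher.

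Hypoxia and glycolysis genes fell as well. Of 29 genes 18 fell and none rose (median -0.94), and 19 fell without PBS replicate 1 (median -1.08). A single rise appeared without PBS replicate 2 or 3 and with DESeq2. CA9, a surface carbonic anhydrase induced by HIF, was 10.6, 23.0 and 34.5 CPM in PBS and 1.37, 1.47 and 1.93 CPM in T-DXd-titled libraries (log2FC -3.84 ± 0.45, adjusted p = 0.00138). NDRG1, another HIF-induced gene, was 507, 2085 and 2503 CPM in PBS and 269, 248 and 286 CPM in T-DXd-titled libraries (log2FC -2.66 ± 0.53, adjusted p = 0.00855). Here PBS replicate 1 was the lowest PBS library, yet above each T-DXd-titled library, and without it the log2 fold changes were larger in size (-4.18 and -3.10). ANGPTL4, a secreted lipase inhibitor, was at -3.44 and the glycolytic regulator PFKFB3 at -2.09. ENO1, STC2 and SLC2A1 (the glucose transporter GLUT1) were not called. SLC2A1 was 87.3, 155 and 159 CPM in PBS and 119.6, 117 and 119.8 CPM in T-DXd-titled libraries, so PBS replicate 1 lay below that group and the other PBS libraries above it. The core of the HIF site, ACGTG on either strand, was found in 14 of 26 promoters matched (53.8%) against 21.6% of all promoters, a count that includes the E-box CACGTG. The share was 25.4% over the promoters of genes tested. Other lists held shares near that of the hypoxia list, 52.4% for ribosome biogenesis and 50% for the lysosome list (11 of 22 promoters matched). It is shown in capitals for CA9 and for LDHA (lactate dehydrogenase A, also called lower), at chr9:35673788-35673927 (plus strand) and chr11:18394423-18394562 (plus strand).
CA9: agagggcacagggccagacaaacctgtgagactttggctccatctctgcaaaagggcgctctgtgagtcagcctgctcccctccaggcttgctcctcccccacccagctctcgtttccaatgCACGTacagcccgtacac
LDHA: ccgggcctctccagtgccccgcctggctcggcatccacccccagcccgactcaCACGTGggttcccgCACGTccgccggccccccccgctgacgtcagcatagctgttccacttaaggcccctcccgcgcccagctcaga

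Sterol genes moved in opposite directions. In the list for sterol synthesis and uptake 11 of 22 genes fell and 1 rose (median -0.58), with 8 falls without PBS replicate 1. SQLE, a rate-limiting enzyme of cholesterol synthesis, was 207, 206 and 214 CPM in PBS and 88.2, 85.9 and 89.1 CPM in T-DXd-titled libraries (log2FC -1.25 ± 0.07, adjusted p = 0.00033). HMGCS1 and IDI1, earlier in the same pathway, were at -1.04 and -0.97. The single rise, TM7SF2, was named after its value was seen (0.86), and its call was lost without PBS replicate 2 or any 1 T-DXd-titled library. SC5D and EBP were not called (-0.12 and -0.58). In the list of targets of LXR, the receptor for oxysterols, 6 of 12 genes rose and 1 fell (median 0.67), against 13.1% called higher over all genes. ABCG1, a sterol exporter, was 1.83, 1.38 and 1.25 CPM in PBS and 14.5, 17.2 and 18.0 CPM in T-DXd-titled libraries (log2FC 3.48 ± 0.20, adjusted p = 0.00033). ABCA1, which loads cholesterol onto lipoproteins, was 18.0, 11.0 and 13.1 CPM in PBS and 64.4, 56.4 and 55.2 CPM in T-DXd-titled libraries (log2FC 2.07 ± 0.19, adjusted p = 0.000693). MYLIP, which marks the LDL receptor for destruction, was 11.8, 12 and 12.3 CPM in PBS and 50.3, 46.7 and 50.4 CPM in T-DXd-titled libraries (log2FC 2.03 ± 0.09, adjusted p = 0.00025). None of the 3 overlapped, and PBS replicate 1 stood slightly high for ABCG1 and ABCA1. APOC1 was the member that fell (-2.68), on levels of 2.68, 0.712 and 0.687 CPM in PBS, and its call was lost when any 1 T-DXd-titled library was left out. SCD, LPCAT3 and APOE were not called, although APOE was without PBS replicate 1 (0.70).

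MHC class I genes rose. Of 18 MHC class I and peptide loading genes 11 rose and none fell (median 0.83), and 10 rose without PBS replicate 1. Their summed level was 4037, 4883 and 5665 CPM in the PBS libraries and 12278, 14293 and 15438 CPM in the T-DXd-titled ones. HLA-B was 382, 541 and 657 CPM in PBS and 2296, 2666 and 2904 CPM in T-DXd-titled libraries (log2FC 2.32 ± 0.21, adjusted p = 0.000693). B2M, the light chain that each class I molecule needs, was 1196, 1716 and 2154 CPM in PBS and 4005, 4741 and 5189.9 CPM in T-DXd-titled libraries (log2FC 1.46 ± 0.22, adjusted p = 0.00331). For both the lowest T-DXd-titled library was well above the highest PBS library. HLA-C was at 1.91. The HLA genes are close copies of one another, so how reads were split among them is uncertain. PSME1, ERAP1 and PSME2 were not called (0.35, 0.49 and 0.05). The core of the interferon response element, GAAANNGAA on either strand, was found in 9 of 15 promoters matched (60%) against 8.29% of all promoters. It is in capitals in the promoters of B2M and of PSMB10, an immunoproteasome subunit that was called higher, at chr15:44711377-44711516 (plus strand) and chr16:67936851-67936990 (minus strand).
B2M: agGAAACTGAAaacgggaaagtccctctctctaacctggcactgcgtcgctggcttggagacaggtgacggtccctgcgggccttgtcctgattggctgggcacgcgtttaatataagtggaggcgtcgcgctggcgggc
PSMB10: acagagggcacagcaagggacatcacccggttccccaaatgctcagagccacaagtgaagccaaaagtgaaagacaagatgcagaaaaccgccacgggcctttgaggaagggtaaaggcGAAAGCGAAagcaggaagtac

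More interferon-stimulated genes rose than fell. Of 30 genes 8 rose and 2 fell (median 0.40), shares of 26.7% and 6.67% against 13.1% and 15.5% of all genes. Between 3 and 11 rose when 1 library was left out. There were 11 without PBS replicate 1 and 3 without PBS replicate 2 or T-DXd-titled replicate 2 or 3. IRF1, a transcription factor induced by interferon gamma, was 33.4, 47.0 and 49.4 CPM in PBS and 111, 121 and 129 CPM in T-DXd-titled libraries (log2FC 1.48 ± 0.16, adjusted p = 0.00108). GBP2, a guanylate-binding protein, was 17.6, 36.3 and 36.9 CPM in PBS and 87.9, 115 and 114 CPM in T-DXd-titled libraries (log2FC 1.80 ± 0.29, adjusted p = 0.0038). In both, PBS replicate 1 was the lowest library and the groups did not overlap. IFI27 and OAS2 were not called, while IFI6 was called higher (0.70). IRF9, a subunit of the factor that type I interferon activates, was called lower (-2.39), but it overlaps another listed gene. The other fall was OAS3 (-0.63), named after its value was seen, and without T-DXd-titled replicate 1 only 1 fall was called. T-DXd-titled replicate 1 had the lowest summed level of its group, 6793 CPM against 9668 and 8993 CPM.

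Cytokines changed in both directions. Of 32 cytokine and chemokine genes 13 fell and 9 rose (median -0.28), and without PBS replicate 1 the counts were 13 and 12. IL1A (interleukin 1 alpha) was 176, 56.9 and 33.4 CPM in PBS and 5.51, 4.29 and 3.36 CPM in T-DXd-titled libraries (log2FC -4.33 ± 0.65, adjusted p = 0.00325). CSF3, the granulocyte growth factor, was 49.1, 9.19 and 3.87 CPM in PBS and 1.67, 1.04 and 0.672 CPM in T-DXd-titled libraries (log2FC -4.19 ± 0.99, adjusted p = 0.0149). PBS replicate 1 exceeded the other PBS libraries several times over in both, and without it the log2 fold changes were -3.36 and -2.53. The CSF3 call was lost when any 1 T-DXd-titled library was left out. IL1B was at -3.25, and the neutrophil chemokines CXCL5 and CXCL6 were at -2.87 and -2.72, or -2.14 and -2.39 without PBS replicate 1. IL34, an alternative ligand of the macrophage receptor CSF1R, rose from 0.136, 0.117 and 0.178 CPM to 3.68, 3.02 and 3.07 CPM (log2FC 4.49 ± 0.28, adjusted p = 0.000346). GDF15, a stress-induced hormone, rose from 10.4, 27.6 and 24.5 CPM to 175, 188 and 190.3 CPM (log2 fold change 3.14, or 2.82 without PBS replicate 1). Both were uniformly high in the T-DXd-titled libraries. INHBA, TGFB2 and IL18 were not called with all libraries, and IL18 was called without PBS replicate 1 (0.60).

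PTGS2 (cyclooxygenase 2), which makes the precursor of prostaglandins, was 529.6, 42.7 and 39.3 CPM in PBS and 3.19, 4.39 and 2.72 CPM in T-DXd-titled libraries (log2FC -5.89 ± 1.2, adjusted p = 0.00907). PBS replicate 1 was far above the others, and without it log2FC was -3.57. DESeq2 gave a log2FC of -5.89 and no adjusted p for this gene, so the call has no counterpart in that tool. In the prostaglandin list 2 of 11 genes fell and 1 rose (median -0.26), shares of 18.2% and 9.09% that were near those of all genes (15.5% lower and 13.1% higher). The other fall was PLA2G4A, which frees arachidonic acid (-2.11, or -1.04 without PBS replicate 1), and the rise was HPGD, which inactivates prostaglandins (2.08). The calls of PLA2G4A and HPGD were lost when any 1 T-DXd-titled library was left out, and that of HPGD also without PBS replicate 3. Without PBS replicate 1 there were 2 rises. PTGES3 and PTGES2 were not called. Among 13 secretory granule and neuropeptide genes tested of 25, 2 fell and 1 rose (median 0.25). These shares, 15.4% lower and 7.69% higher, were near or below the same shares of all genes. SCG5, a chaperone of prohormone processing, was 112, 62.5 and 59.1 CPM in PBS and 2.99, 2.75 and 3.42 CPM in T-DXd-titled libraries (log2FC -4.67 ± 0.29, adjusted p = 0.000346). It was low in each T-DXd-titled library. GAL (galanin) was 6.41, 2.1 and 1.06 CPM in PBS and 0.0967, 0 and 0.199 CPM in T-DXd-titled libraries, where its counts were 7, 0 and 13, and its call was lost without T-DXd-titled replicate 1. PCSK1N, an inhibitor of a prohormone protease, was the rise (1.49). Rises numbered 4 without PBS replicate 1 and 2 without PBS replicate 2 or 3. PAM, CPE and SYP were not called.

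**Figure D3:**
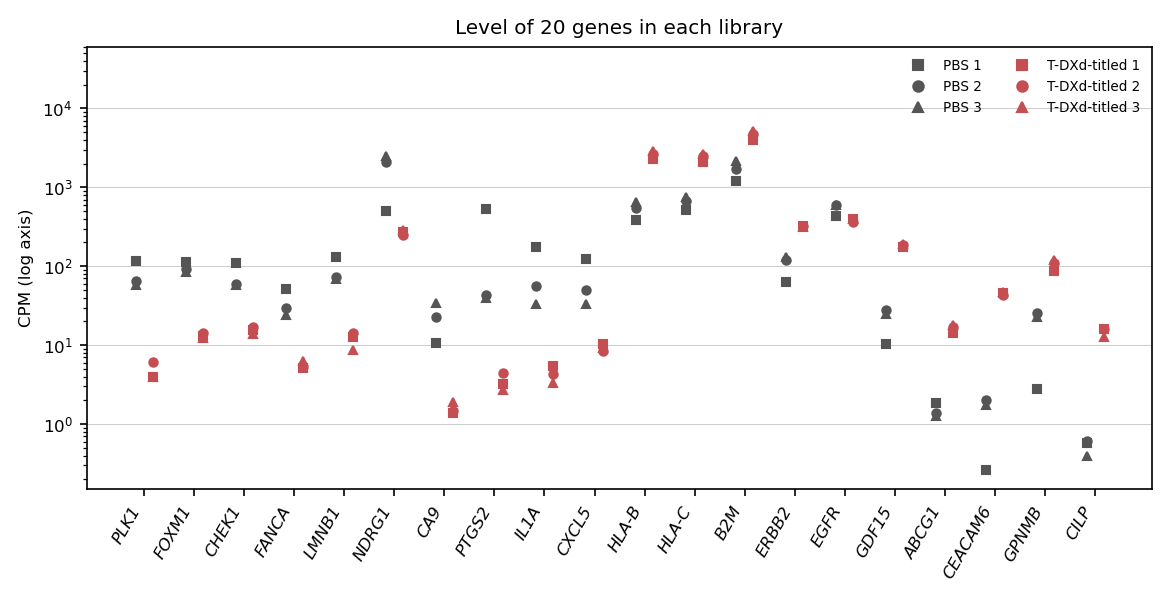
CPM (log axis) of 20 genes in each of the 6 libraries, PBS in grey and T-DXd-titled in red, with a marker for each replicate. The groups are apart for each gene shown, the T-DXd-titled points lie close together, and PBS replicate 1 (squares) departs from the other PBS libraries for PTGS2 (529.6 CPM), NDRG1 (507 CPM) and CEACAM6 (0.262 CPM).

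Lysosomal genes rose together. Of 32 genes 22 rose and none fell (median 0.85), or 20 without PBS replicate 1, against 13.1% of all genes called higher. Their summed level was 5003, 6252 and 6492 CPM in the PBS libraries and 9876, 10212 and 10812 CPM in the T-DXd-titled ones. ASAH1 (acid ceramidase) was 66.2, 80.6 and 93.8 CPM in PBS and 219, 216 and 221 CPM in T-DXd-titled libraries (log2FC 1.45 ± 0.13, adjusted p = 0.00069). It separated the groups, with little spread among the T-DXd-titled libraries. GPNMB, a membrane glycoprotein of lysosomes and a marker of lysosomal stress, was 2.81, 25.4 and 22.8 CPM in PBS and 88.2, 111 and 119 CPM in T-DXd-titled libraries, with a log2 fold change of 2.64 and 2.14 without PBS replicate 1, where its level was lowest. Its call was lost when any 1 T-DXd-titled library was left out. HEXA, a subunit of hexosaminidase, was at 2.53 on a level of 5.79 CPM. LAMP1, CTSZ and CTSB were not called, although CTSB was with DESeq2 (0.67, adjusted p = 0.0287) and in edgeR's fit of all 9 libraries (0.66, adjusted p = 0.0384). The promoters of this list were matched for 22 of 32 genes, under 80%. Apart from the share of the HIF site core given above, their motifs were not compared.

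In the list of the unfolded protein and integrated stress responses 9 of 22 genes rose and none fell (median 0.40), with between 6 and 9 when 1 library was left out. CHAC1, which degrades glutathione, was 5.00, 6.93 and 7.06 CPM in PBS and 14.8, 11.9 and 13.9 CPM in T-DXd-titled libraries (log2FC 1.09 ± 0.18, adjusted p = 0.0043). PPP1R15A (GADD34), which restores translation after stress, was 60.1, 72 and 72.1 CPM in PBS and 141, 123 and 128 CPM in T-DXd-titled libraries (log2FC 0.94 ± 0.11, adjusted p = 0.00121). SESN2 and DNAJB9 were at 1.07 and 0.97, and both calls were lost without T-DXd-titled replicate 1 or 3. The chaperones HSPA5 (BiP), HSP90B1 and CALR were not called (0.14, -0.33 and -0.15). Of 22 NRF2 and glutathione genes 6 rose and 1 fell (median 0.29), with 3 rises without PBS replicate 2 or T-DXd-titled replicate 3. HMOX1 (heme oxygenase 1) was 8.68, 10.4 and 12.7 CPM in PBS and 18.8, 19.3 and 21.0 CPM in T-DXd-titled libraries (log2FC 0.89 ± 0.16, adjusted p = 0.00575). OSGIN1 was at 0.89, GPX4 at 0.72 and AKR1B10 at 1.39, the call of GPX4 being lost without PBS replicate 1 and that of AKR1B10 without PBS replicate 2 or any 1 T-DXd-titled library. The single fall was TKT (-0.63), named after its value was seen, and of the 6 fits that left out 1 library it was called without PBS replicate 2 or 3. TXNRD1, TALDO1 and KEAP1 were not called, and TALDO1 was without PBS replicate 1 (0.64). Of 4 genes of the metallothionein list tested, MT1X (-1.29) and MT2A (-0.92) fell and none rose, with MT1F added without PBS replicate 1 (-0.59) and SLC30A1 not called. MT1X and MT2A are close copies, so their counts are uncertain.

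A part of the epithelial genes rose, while mesenchymal genes were called in both directions. Of 28 epithelial adhesion and keratin genes 14 rose and none fell (median 0.69, or 0.48 without PBS replicate 1). The list does not hold every keratin. Outside it KRT6A (-3.22) and KRT14 (-2.33) were called lower and KRT5 was not called, as given below. The count was 13 without PBS replicate 1, and 7, 8 and 6 without T-DXd-titled replicates 1, 2 and 3. CLDN1 (claudin 1, a tight junction protein) was 59.7, 161 and 156 CPM in PBS and 561, 561 and 559 CPM in T-DXd-titled libraries (log2FC 2.16 ± 0.35, adjusted p = 0.00417). CEACAM6, a surface adhesion molecule, was 0.262, 2.01 and 1.75 CPM in PBS and 45.9, 43.4 and 47.2 CPM in T-DXd-titled libraries (log2FC 5.06 ± 0.63, adjusted p = 0.00172), the largest rise among called genes that averaged 100 counts or more and whose groups did not overlap. PBS replicate 1 was lowest for both. CEACAM5 had 0, 1 and 21 counts in the PBS libraries and 93, 86 and 45 in the T-DXd-titled ones. CLDN3 was at 1.84, and its call and that of CEACAM5 were lost without PBS replicate 2 or any 1 T-DXd-titled library. KRT7, ST14 and EPCAM were not called (-0.04, 0.72 and 0.52). Without PBS replicate 3 both ST14 (0.90) and EPCAM (0.66) were called, and ST14 also with DESeq2 (0.72).

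Of 20 mesenchymal genes 5 fell and 4 rose (median -0.11), and 7 rose without PBS replicate 1, with 5 falls. The shares were 25% lower and 20% higher, against 15.5% and 13.1% of all genes. FN1 (fibronectin) was 1845, 2295 and 2899 CPM in PBS and 446, 476 and 533 CPM in T-DXd-titled libraries (log2FC -2.27 ± 0.18, adjusted p = 0.000508). TGFBI, a matrix protein induced by TGF-beta, was 407, 112 and 117 CPM in PBS and 25.8, 31.5 and 27.0 CPM in T-DXd-titled libraries (log2FC -2.91 ± 0.53, adjusted p = 0.00589). Both were low in each T-DXd-titled library, with PBS replicate 1 lowest of its group for FN1 and highest for TGFBI. The repressors of epithelial genes SNAI1 and SNAI2 were at -2.27 and -2.01. THBS1, CD44 and CYR61 were not called, and CYR61 was called without PBS replicate 1 (0.69). Of 32 collagen and matrix genes 8 rose and 6 fell (median 0.19), or 10 and 7 without PBS replicate 1. The share that fell (18.8%) was near the 15.5% of all genes called lower, and 25% rose against 13.1%. COL6A3, the longest chain of collagen VI, was 153, 170.4 and 156 CPM in PBS and 12.1, 11.3 and 11.9 CPM in T-DXd-titled libraries (log2FC -3.77 ± 0.09, adjusted p = 1.60e-05). COL7A1, of the anchoring fibrils below epithelia, was 563, 401 and 281 CPM in PBS and 42.4, 35.4 and 38.1 CPM in T-DXd-titled libraries (log2FC -3.42 ± 0.26, adjusted p = 0.000508). CILP, a cartilage matrix protein, rose from 0.569, 0.602 and 0.393 CPM to 16.2, 16.1 and 12.6 CPM (log2FC 4.84 ± 0.24, adjusted p = 0.000253). None of the 3 overlapped, and COL6A3 varied least. COL17A1 was at -1.83, and LAMB3 and COL1A1 were not called, although COL1A1 was called without PBS replicate 1 (0.65).

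In the list of proteases and plasminogen activation 9 of 27 genes rose and 9 fell (median -0.03). MMP7 (matrilysin) rose from 0.841, 5.19 and 6.76 CPM to 48.2, 53.5 and 52.8 CPM (log2FC 3.59 ± 0.65, adjusted p = 0.00596). F3 (tissue factor, which starts coagulation) was 309, 112 and 76.8 CPM in PBS and 16.9, 17.1 and 16.2 CPM in T-DXd-titled libraries (log2FC -3.31 ± 0.51, adjusted p = 0.00356). Neither overlapped, and PBS replicate 1 was the lowest library for MMP7 and the highest for F3. MMP9 (gelatinase B) was 36.7, 148 and 236 CPM in PBS and 26.6, 22.3 and 25.0 CPM in T-DXd-titled libraries, at -2.51, and its call was lost when any 1 T-DXd-titled library was left out. ADAMTS1 was called lower (-3.40), at 0.659, 4.96 and 0.232 CPM in PBS and 0.263, 0.135 and 0.153 CPM in T-DXd-titled libraries, but PBS replicate 3 lay inside the T-DXd-titled range. Its call was lost without PBS replicate 2 (-1.26) or any 1 T-DXd-titled library. MMP1 (interstitial collagenase) was 710.0, 88.2 and 69.3 CPM in PBS and 47.9, 49.2 and 49.3 CPM in T-DXd-titled libraries and was not called with all libraries (-2.57). It was called without any 1 PBS library, at -0.69 without PBS replicate 1. MMP14 and ADAM8 were not called.

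The receptors of the ERBB family were of interest because the conjugates bind HER2 or HER3. ERBB2, which encodes HER2, was 63.9, 119 and 132 CPM in PBS and 322, 323 and 319 CPM in T-DXd-titled libraries (log2FC 1.62 ± 0.25, adjusted p = 0.00361). It rose 3.06-fold, the T-DXd-titled libraries were nearly identical and above each PBS library, and the log2 fold change was 1.36 without PBS replicate 1. It overlaps its neighbors PGAP3 and MIEN1 in the table. ERBB3, which encodes HER3, was 27.4, 66.5 and 73.3 CPM in PBS and 87.7, 92.3 and 95.3 CPM in T-DXd-titled libraries and was not called (log2FC 0.72 ± 0.33, adjusted p = 0.117). EGFR was 435, 591 and 590.2 CPM in PBS and 394, 362 and 397 CPM in T-DXd-titled libraries and was not called (log2FC -0.49 ± 0.13, adjusted p = 0.0258). Both receptors separated the groups, and without PBS replicate 1 EGFR was called, at -0.62, and ERBB3 was not, at 0.39. ERBB4 was 4.95, 1.34 and 1.59 CPM in PBS and 0.498, 1.04 and 1.34 CPM in T-DXd-titled libraries, which overlapped, and was not called. It was called with DESeq2 (-1.44, adjusted p = 0.0353) and in edgeR's fit of all 9 libraries (-1.45, adjusted p = 0.0462). Over the list of ERBB receptors, ligands and feedback genes 6 of 23 rose and 7 fell (median -0.23), and falls numbered 8 without PBS replicate 1, while T-DXd-titled replicates 1 and 3, each left out in turn, gave 4 and 3. The ligands AREG, EPGN and NRG2 were at -2.32, -1.86 and -1.83. The AREG call was lost when any 1 T-DXd-titled library was left out, and that of NRG2 without T-DXd-titled replicate 1 or 3. ASPN (asporin, a small leucine-rich proteoglycan of stroma) rose from 11.9, 9.19 and 7.72 CPM to 38.1, 33.0 and 35.4 CPM (log2FC 1.89 ± 0.17, adjusted p = 0.000702), and it overlaps CENPP. DUSP6 and DUSP4, phosphatases of the ERK feedback loop, were not called, although DUSP4 was with DESeq2 (-0.89) and without PBS replicate 3 (-1.15).

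PC3 cells lack p53, and p53 target genes showed no shared direction. Of 28 tested 2 rose and 5 fell (median -0.07), or 3 and 3 without PBS replicate 1, shares near or below the 13.1% and 15.5% of all genes. The rises were GDF15, given above, and BBC3 (PUMA, a trigger of apoptosis; 1.11). DDB2 of nucleotide excision repair was at -0.96 and TP53I3 at -0.84, and PHLDA3 and TNFRSF10B (a TRAIL receptor) were not called, PHLDA3 being called without PBS replicate 1 (0.63) or T-DXd-titled replicate 1. Of 34 apoptosis regulators 3 rose and 4 fell (median 0.07), with 6 rises without PBS replicate 3. The shares, 8.82% higher and 11.8% lower, were below those of all genes. TNFSF10 (TRAIL) was 12.2, 17.5 and 21.1 CPM in PBS and 31.5, 48.4 and 42.2 CPM in T-DXd-titled libraries (log2FC 1.26 ± 0.24, adjusted p = 0.00666). BIRC3, an inhibitor of apoptosis, was 41.8, 71.3 and 88.7 CPM in PBS and 170.1, 156 and 141 CPM in T-DXd-titled libraries (log2FC 1.21 ± 0.26, adjusted p = 0.0102). Each T-DXd-titled library was above each PBS library for both. APAF1, which builds the apoptosome, was at -1.27 and BCL2A1 at -2.09. BCL2L1 (BCL-XL) and MCL1 were not called, at 0.23 and 0.01. Of 16 complement and coagulation regulators 5 rose and 1 fell (median 0.85), with 7 rises without PBS replicate 1 and 3 without any 1 T-DXd-titled library. CFD (factor D, also called adipsin) was 6.30, 5.71 and 7.57 CPM in PBS and 43.4, 41.1 and 43.5 CPM in T-DXd-titled libraries (log2FC 2.71 ± 0.13, adjusted p = 0.000253). CLU (clusterin) was at 2.17. C3 was at 1.12, its call being lost without PBS replicate 2 or any 1 T-DXd-titled library. CFI fell (-2.61) on 14 counts over the T-DXd-titled libraries and was not called without PBS replicate 3 or T-DXd-titled replicate 1 or 3. CD46, CD55 and C1R were not called with all libraries, and CD55 was called without PBS replicate 1 (0.64).

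**Figure D4:**
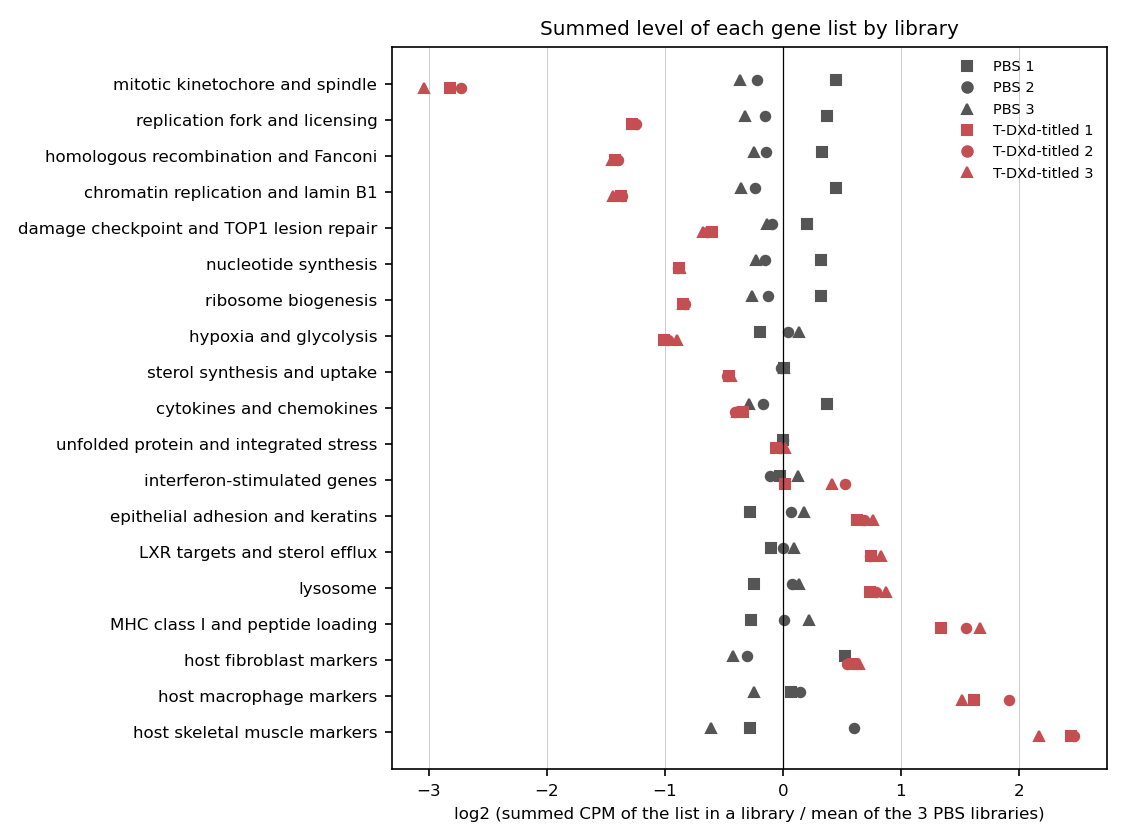
Summed CPM of 19 gene lists in each library as the log2 ratio to the mean of the 3 PBS libraries, PBS in grey and T-DXd-titled in red, with a marker for each replicate. The mitotic list lies lowest in the T-DXd-titled libraries, the skeletal muscle list highest, and PBS replicate 1 (grey squares) lies to the right of the other PBS libraries for the proliferation lists.

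Mouse cells of the host contribute RNA to a xenograft, and how their reads were handled is not stated, so markers of host cells were read beside the tumor genes. Of 22 skeletal muscle markers 16 rose and none fell (median 3.09), with 21 rises without PBS replicate 1 and 7 to 9 without any 1 T-DXd-titled library. Their summed level was 73.7, 136 and 58.6 CPM in the PBS libraries and 486, 497 and 402 CPM in the T-DXd-titled ones. TNNC2, the calcium sensor of fast muscle fibers, was 0.785, 4.64 and 0.357 CPM in PBS and 29.6, 29.1 and 28.3 CPM in T-DXd-titled libraries (log2FC 3.89 ± 0.87, adjusted p = 0.0124), and among the PBS libraries replicate 2 was the highest. MYLPF and CKM, also of muscle fibers, were at 4.87 and 3.93, with 32 counts of MYLPF over the PBS libraries, and the call of CKM was lost when any 1 T-DXd-titled library was left out. CASQ1 was at 3.86. MB, MYH1 and MYH4 were not called, but MB was without PBS replicate 1 (1.2) and MYH1 and MYH4 were without any 1 PBS library. MYH1 had 136, 1065 and 0 counts in PBS and 2727, 3097 and 2297 in T-DXd-titled xenografts.

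Of 14 fibroblast markers 7 rose and none fell (median 1.25), with 11 rises without PBS replicate 1 and 4 without T-DXd-titled replicate 2. Their summed level was 2156, 1209 and 1117 CPM in PBS and 2260.4, 2177 and 2343 CPM in T-DXd-titled libraries, so by this sum PBS replicate 1 lay near the T-DXd-titled group. OGN and POSTN, proteins of the fibroblast matrix, were at 2.99 and 1.86, FMOD at 1.58, and FBLN1 and FAP were not called. FAP, at 0.58, was called without PBS replicate 1 or 3 or T-DXd-titled replicate 1 or 3. The call of FMOD was lost without PBS replicate 2 or any 1 T-DXd-titled library. Of 10 macrophage markers 5 rose and 1 fell (median 1.17), on summed levels of 11.7, 12.3 and 9.44 CPM in PBS and 34.3, 42.1 and 32.0 CPM in T-DXd-titled libraries. CSF1R was 2.51, 2.66 and 2.87 CPM in PBS and 10.2, 14.6 and 10.4 CPM in T-DXd-titled libraries (log2FC 2.12 ± 0.19, adjusted p = 0.000695). LYZ (lysozyme) was 1.83, 0.665 and 0.714 CPM in PBS and 12.5, 15.4 and 10.4 CPM in T-DXd-titled libraries (log2FC 3.59 ± 0.44, adjusted p = 0.00165). Both were apart without overlap. AIF1 was at 2.29, C1QB had 12 counts over the PBS and 67 over the T-DXd-titled libraries, and EMR1, CD14 and MARCO were not called. The macrophage marker that fell, MSR1 (-1.66), was named after its value was seen, and its call was lost without PBS replicate 2 or T-DXd-titled replicate 1 or 3. EMR1 was also called lower without PBS replicate 3 (-1.52) and with DESeq2 (-1.14). CD163, MRC1, C1QC and TYROBP were not listed, and CD68 and C1QA were below the filter.

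Other host lists held fewer calls. Of 11 endothelial markers 2 rose, TEK (1.19) and ROBO4 (0.80), and EGFL7, VWF and KDR were not called, with PECAM1 and EMCN not listed and summed levels of 30.9, 35.9 and 40.6 CPM in PBS and 59.8, 62.1 and 59.4 CPM in T-DXd-titled libraries. The ROBO4 call was lost when any 1 T-DXd-titled library was left out, and EGFL7 was called without PBS replicate 1 (0.89). Of 5 adipocyte markers CD36 rose (1.35) and PPARG, PLIN1 and LIPE were not called, ADIPOQ, LEP and PCK1 not being listed. The sums overlapped, at 59.2, 82.0 and 96.5 CPM in PBS and 89.3, 90.6 and 87.9 CPM in T-DXd-titled libraries. Of 8 nerve sheath markers 2 rose, among them MBP (0.70), while PMP22, NGFR and PRX were not called and S100B was not listed. Their sums were 60.4, 75.4 and 80.3 CPM in PBS and 99.0, 96.6 and 98.4 CPM in T-DXd-titled libraries. Of 3 lymphoid markers PTPRC rose (1.1), a gene that all blood leukocytes express, and CD3D and CD79A were not called. CD3E, CD3G, CD2, MS4A1 and GZMB were not listed, and the sums were 1.5, 1.19 and 1.06 CPM in PBS and 1.87, 2.29 and 1.54 CPM in T-DXd-titled libraries. The call of CD36 was lost without PBS replicate 2 or 3 or T-DXd-titled replicate 1 or 2, that of PTPRC without PBS replicate 2 or T-DXd-titled replicate 1 or 2, and that of MBP without any 1 library other than PBS replicate 3. The nerve list had 0 rises without PBS replicate 2 or T-DXd-titled replicate 1 or 2 and 1 without T-DXd-titled replicate 3, and a fall appeared without PBS replicate 1. Of 6 epidermis markers KRT14 was called lower, at 431, 57.9 and 65.0 CPM in PBS and 40.4, 34.1 and 35.6 CPM in T-DXd-titled libraries (-2.33, or -0.75 without PBS replicate 1), and the call was lost when any 1 T-DXd-titled library was left out. KRT5, KRT10 and KRT15 were not called, and KRT5 was 522, 93.4 and 88.3 CPM in PBS and 122, 85.6 and 95.1 CPM in T-DXd-titled libraries, high in PBS replicate 1 alone. KRT1, LORICRIN and TGM3 were not listed. The epidermis list had 1 rise without PBS replicate 1 and 2 falls without PBS replicate 3, and its sum was 1010.3, 221 and 231 CPM in PBS and 251, 215 and 223 CPM in T-DXd-titled libraries. How far reads from host cells entered the counts of the tumor genes was not tested.

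A gene that PC3 cells are known to lack was read as a check. CTNNA1 (alpha-catenin) is homozygously deleted in PC3 cells, yet it was 20, 13.3 and 11.6 CPM in PBS and 24.3, 25.3 and 24.2 CPM in T-DXd-titled libraries (log2FC 0.72 ± 0.20, adjusted p = 0.0277). Each T-DXd-titled library exceeded each PBS library, and PBS replicate 1 was the highest PBS library. The call was lost without any 1 library other than PBS replicate 1. The source of these counts was not tested. Of 7 genes of the prostate luminal list 2 rose and 2 fell (median 0.14). FKBP5 was at -1.79, HOXB13 at 0.63 and TP63 at -0.80. The TP63 call was lost without any 1 library other than PBS replicate 3, and that of HOXB13 without PBS replicate 1 or T-DXd-titled replicate 3. STEAP2 and TMPRSS2 were not called, although TMPRSS2 was without PBS replicate 1 (0.80).

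Several of the largest changes lay outside these lists. FOLR1, a folate receptor on the cell surface, rose from 0.250, 0.446 and 0.357 CPM to 5.32, 6.38 and 7.20 CPM (log2FC 4.15 ± 0.28, adjusted p = 0.000442). IL2RG, the shared chain of several interleukin receptors, rose from 0.307, 0.540 and 0.509 CPM to 8.18, 6.61 and 9.64 CPM (log2FC 4.16 ± 0.29, adjusted p = 0.000466). THBS4, a matrix protein of muscle and tendon, rose from 1.13, 1.53 and 0.812 CPM to 24.0, 23.4 and 27.4 CPM (log2FC 4.43 ± 0.25, adjusted p = 0.00033). All 3 were low and alike in the PBS libraries. BCAS1, SULT1E1 (an estrogen sulfotransferase) and GLYATL2 were at 3.88, 3.98 and 4.02, with 3 counts of SULT1E1 and 0 of GLYATL2 in PBS replicate 1. Among abundant genes TXNIP, which restrains glucose uptake, rose from 84.9, 151 and 202 CPM to 589, 549.8 and 549 CPM (log2FC 1.95 ± 0.29, adjusted p = 0.00308). INHBB, a subunit of activin B, was 15.6, 132 and 147 CPM in PBS and 491, 484 and 522 CPM in T-DXd-titled libraries, and S100A9 (calgranulin B) was 137, 502 and 602 and 1349.7, 1440.5 and 1632 CPM. For both PBS replicate 1 was far below the other libraries, without it the log2 fold changes were 1.83 and 1.42, and their calls were lost when any 1 T-DXd-titled library was left out, that of INHBB also without PBS replicate 2.

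Among the falls, ANPEP (aminopeptidase N) was 297, 150.2 and 172 CPM in PBS and 9.43, 9.61 and 9.27 CPM in T-DXd-titled libraries (log2FC -4.45 ± 0.28, adjusted p = 0.000346). CAV1 (caveolin 1) was 740.4, 436 and 472 CPM in PBS and 103, 104 and 109.7 CPM in T-DXd-titled libraries (log2FC -2.38 ± 0.21, adjusted p = 0.000643). AKAP12, a scaffold for protein kinases, was 469, 337 and 292 CPM in PBS and 46.6, 40.8 and 40.5 CPM in T-DXd-titled libraries (log2FC -3.10 ± 0.19, adjusted p = 0.000346). In all 3 the T-DXd-titled libraries were uniform and far below PBS. KRT6A and S100A2, genes of stratified epithelia, were 1326, 213 and 284 and 1605, 591 and 473 CPM in PBS, with PBS replicate 1 much the highest, and 61.1, 64.1 and 70.3 and 124, 142 and 146 CPM in T-DXd-titled libraries. Without PBS replicate 1 their log2 fold changes were -1.93 and -1.96, against -3.22 and -2.70, and the KRT6A call was lost without T-DXd-titled replicate 1 or 3. UGT8, LRRC8C and UNC80 (a lipid transferase, a subunit of a volume-regulated channel and a partner of a sodium leak channel) were at -4.10, -4.04 and -3.95. CDH18 (a cadherin) was 9.82, 2.82 and 0.491 CPM in PBS and had only 2, 5 and 3 counts in the T-DXd-titled libraries, so its fold change is imprecise.

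Topoisomerase I is known to be needed for the transcription of long genes, so changes were set against gene length, taken as the span of the gene in the table. The genes were ordered by span into 10 bins of equal number. The bin with the shortest spans (median 3089 bp) had a median log2 fold change of 0.15, with 18.8% called higher and 11.9% lower. The bin with the longest spans (median 270266.5 bp) had a median of -0.03, with 13.9% higher and 14.7% lower, so the longest bin differed from the shortest by -0.17. The bins between them had medians from -0.07 to 0.01. When genes were split into 3 classes of mean CPM, the difference was -0.26 in the highest class, -0.19 in the middle class and 0.056 in the lowest, so its sign turned among weakly expressed genes. It was -0.24 without PBS replicate 1. Genes are not replicates, and these values are a description.

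**Figure D5:**
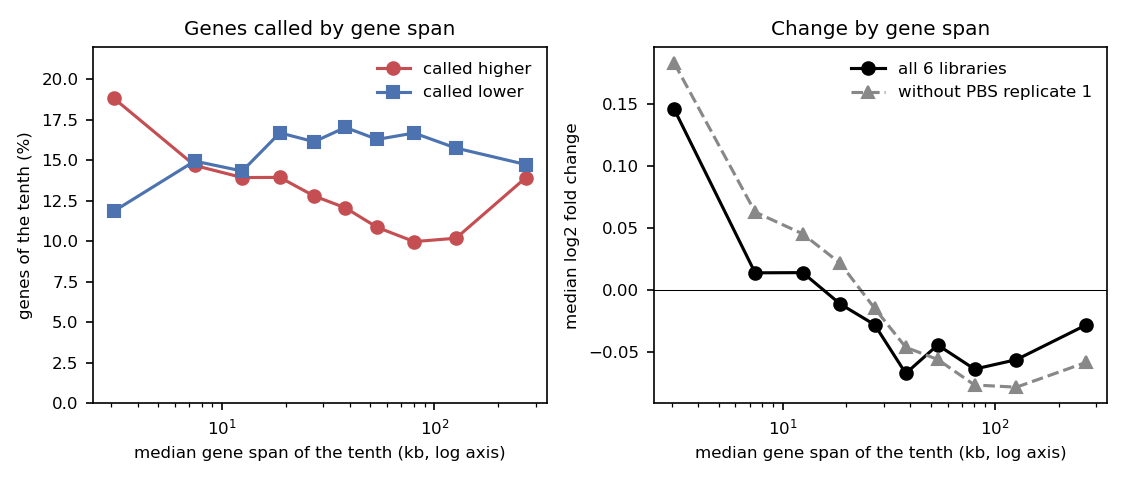
Share of genes called higher or lower (%, left) and median log2 fold change of T-DXd-titled against PBS (right, with and without PBS replicate 1) in 10 bins of gene span, against the median span of each bin (kb, log axis). With all 6 libraries the shortest bin stands highest, at a median of 0.15 and 18.8% called higher, and the medians of the other bins lie between -0.07 and 0.01.

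To see what was particular to the T-DXd-titled xenografts, they were tested against the 3 P-DXd-titled xenografts (codes H1.2, H1.3 and H2.2), whose treatment field names T-DXd. Of 14653 genes 4 were called (0.0273%), all lower in T-DXd-titled xenografts, and 540 (3.69%) had an unadjusted p under 0.05. Of 4153 genes called against PBS and tested here, 3900 differed by less than 1.5-fold, with a median absolute log2 fold change of 0.10. Levels here are scaled over these 6 libraries. CXCL5 was 10.4, 8.52 and 9.28 CPM in T-DXd-titled and 18.5, 17.1 and 18.3 CPM in P-DXd-titled xenografts (log2FC -0.94 ± 0.10, adjusted p = 0.0228). The related chemokine CXCL6 was 13.5, 15 and 16.6 CPM in T-DXd-titled and 28.5, 32.5 and 25.4 CPM in P-DXd-titled xenografts (log2FC -0.94 ± 0.11, adjusted p = 0.0361). ANPEP was 9.38, 9.57 and 9.23 CPM in T-DXd-titled and 19.1, 19.9 and 14.9 CPM in P-DXd-titled xenografts (log2FC -0.94 ± 0.12, adjusted p = 0.0426). All 3 genes were called lower than PBS in T-DXd-titled xenografts, and the groups compared here did not overlap. H3F3C, a close copy of other histone H3.3 genes with uncertain counts, was 5.20, 6.30 and 5.61 CPM in T-DXd-titled and 16.8, 28.7 and 20.4 CPM in P-DXd-titled xenografts (log2FC -1.94 ± 0.18, adjusted p = 0.0101). It was not called against PBS (-0.57). Leaving out T-DXd-titled replicate 1 gave 0 calls, replicate 2 or 3 of that group or P-DXd-titled replicate 1 gave 1, and P-DXd-titled replicate 3 gave 8. The call without T-DXd-titled replicate 3 was a rise in T-DXd-titled xenografts, so none of the 4 falls stayed called there. The 8 calls held 1 rise.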

How the data were processed

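RNA-Seq of PC3 xenografts was analysed from the table of T-DXd-titled and PBS libraries, with the P-DXd-titled table used for 1 comparison. Per the study's methods and the submitters' processing notes, the authors used cutadapt for trimming, STAR for alignment to GRCh38.p13 and featureCounts for counting, and the deposited values are raw counts per gene. How mouse reads were treated and whether strand was used are not given in the sources used here. The table lists 16114 protein-coding genes, each with at least 5 counts in at least 2 libraries, under symbols kept here as listed. Of these, 223 end beyond their GRCh38 chromosome, so no table coordinates are given. There were 0 unused columns of per-sample values.

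Groups followed the column names, which match the titles. Counts were tested in R 4.3.3 with edgeR 4.0.16 (TMM, filterByExpr, two-sided quasi-likelihood F test, Benjamini-Hochberg adjustment over all 14915 genes tested) on the 6 libraries compared, at a fold change of 1.5 and an adjusted p of 0.05. The direct test against P-DXd-titled libraries was fitted likewise. Alternatives were DESeq2 1.42.0, other size factors and filters, glmTreat, all 9 libraries in 1 fit, thinning to 1 depth, and leaving out each library. The method was tested on simulated data.

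The comparison and the 40 gene lists were chosen with earlier results of these data known, and no list was tested as a set. The rule for naming genes took the 12 largest rises and 12 largest falls among called genes averaging 100 counts or more without overlap; the 8 largest of each among those averaging 300 CPM or more in either group; in each list up to 4 called members with the largest change and up to 3 uncalled members with the highest level; the ERBB receptors, ASPN, TOP1, SLFN11, ABCG2 and CTNNA1; and genes called between the 2 conjugates. Replicates were compared by chi-square per gene, from 17.7 to 395, so none was a duplicate. Promoters came from RefSeq (GRCh38.p14), matched by symbol. Some genes that this rule names are not reported here.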

Additional observations from a re-analysis of the deposited data

Results flagged for a closer look

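In the direct test of T-DXd-titled against P-DXd-titled xenografts, 4 genes differed between the 2 treated groups by edgeR's quasi-likelihood test. The T-DXd-titled minus P-DXd-titled log2 fold change was -0.937 for ANPEP, -0.935 for CXCL6, -0.937 for CXCL5 and -1.94 for H3F3C, and for each gene the 3 T-DXd-titled libraries lay below the 3 P-DXd-titled ones. No gene was called by the same test when all 9 libraries were fitted together. Because titles and treatment fields name opposite conjugates, the sign of these differences follows the titles only.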

How the results depend on the processing

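The 4263 genes called against PBS became 1696 with glmTreat at the same fold limit, and ranged from 2820 (without T-DXd-titled replicate 3) to 4641 (without PBS replicate 3) when 1 library was left out. Between the treated groups, the 4 calls became 23 with DESeq2, 1 with glmTreat and 0 with all 9 libraries in 1 fit, and ranged from 0 (without T-DXd-titled replicate 1) to 8 (without P-DXd-titled replicate 3), while 540 genes had an unadjusted p under 0.05 in edgeR's fit of 6 libraries. The span difference of -0.17 was 0.056 in the lowest expression class and -0.26 in the highest, and ranged from -0.24 (without PBS replicate 1) to -0.11 (without T-DXd-titled replicate 3). The cause of these shifts was not tested. Of the list counts under the alternatives, 739 stayed within 1.5 times, 31 were larger and 110 smaller. Of the named genes' values, 2733 kept direction and side of the threshold, 84 gained a call and 150 lost one, and none changed direction as a called value. The median log2 fold change of all genes was -0.02 with TMM and -0.01 with RLE factors. The full numbers in the titles' codes are not shared between T-DXd-titled and PBS libraries, and 1 is shared between the treated groups, so these could not pair the samples. The codes share a first number, whose meaning no label gives. With it as a replicate block, a fit added after seeing the data, 3398 genes were called against PBS and 3 between the treated groups. Deviations from the group means correlated at -0.0634 to 0.0794 over the 4 pairs of T-DXd-titled and PBS libraries with the same first number and at -0.0706 to 0.0679 over the 5 with different ones. PBS replicate 1 widens the error of PBS means, and genes with a few counts in a group have imprecise fold changes.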

Other observations

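Transcripts encoded by mitochondrial DNA were higher in T-DXd-titled xenografts. Of 13 tested, 11 were called higher and none lower, with a median log2 fold change of 0.90, and without PBS replicate 1 all 13 were called. MT-ND3, a subunit of complex I, was 272, 383 and 403 CPM in PBS and 1200.4, 1211 and 2016 CPM in T-DXd-titled libraries, a log2 fold change of 2.07. MT-CO1 and MT-CO2, subunits of cytochrome oxidase, were not called and were at 0.34 and 0.60. T-DXd-titled replicate 3 was the highest library for MT-ND3, MT-CO1 and MT-CO2. This group was examined after its values were seen, with MT-ND3 alone named by rule.

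Chromosomes differed in the median log2 fold change of their genes. It was 0.18 over 598 genes of chromosome 9, with 17.2% called higher and 8.70% lower. On chromosome 12 it was -0.19 over 804 genes, with 10.8% higher and 21.1% lower, and on chromosome 13 -0.19 over 245 genes. These are descriptions chosen after the values were seen, and genes of a chromosome are not independent replicates.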
